A study of Mus musculus with 201 samples.

Results

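BXD strains are recombinant inbred mouse lines derived from crosses of C57BL/6J and DBA/2J, and all mice of a strain share nearly the same genotype. Hippocampal RNA from small pools of mice of 1 strain was hybridized to Affymetrix M430 2.0 arrays, and for most strains a female pool and a male pool were measured. The question addressed here was whether, within a strain, the pool with the older mice differed from the pool with the younger mice. A strain entered when at least 2 of its arrays had labelled mean pool ages that differed by 15 days or more, which gave 22 of 68 BXD strains and 44 of the 201 arrays of the series. Each strain contributed 1 older pool and 1 younger pool. The third array of BXD85, at 79 days, lay between the other two and was left out. No treatment was labelled for any pool, each pool held 2 to 4 mice, and hippocampi had been dissected whole, with variable amounts of subiculum and fimbria. The values are scores per probe set from the positional-dependent nearest-neighbour method (PDNN), which behave as logarithms of an unstated base, so differences are given in PDNN units and not as folds.

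Younger pools had a labelled mean age of 55 to 86 days, with a median of 60 days. Older pools had a labelled mean age of 72 to 196 days, with a median of 88 days. The smallest age gap was 15 days, the median 23 days and the largest 137 days. A pool over 100 days was present in 6 strains, and it was the older pool in each of them. BXD22 was measured at 59 and 196 days, BXD74 at 79 and 193 days, and BXD19 at 60 and 157 days. BXD21 was measured at 60 and 102 days, BXD63 at 70 and 107 days, and BXD79 at 86 and 108 days. In the other 16 strains the older pool was 72 to 96 days old and the gap was 15 to 34 days. At the edge of the rule, BXD34 entered with a gap of 15 days, while 3 strains with a gap of 14 days did not enter. The comparison therefore covers young adult mice in nearly all strains, with 3 pools at 157 to 196 days.

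**Figure D1:**
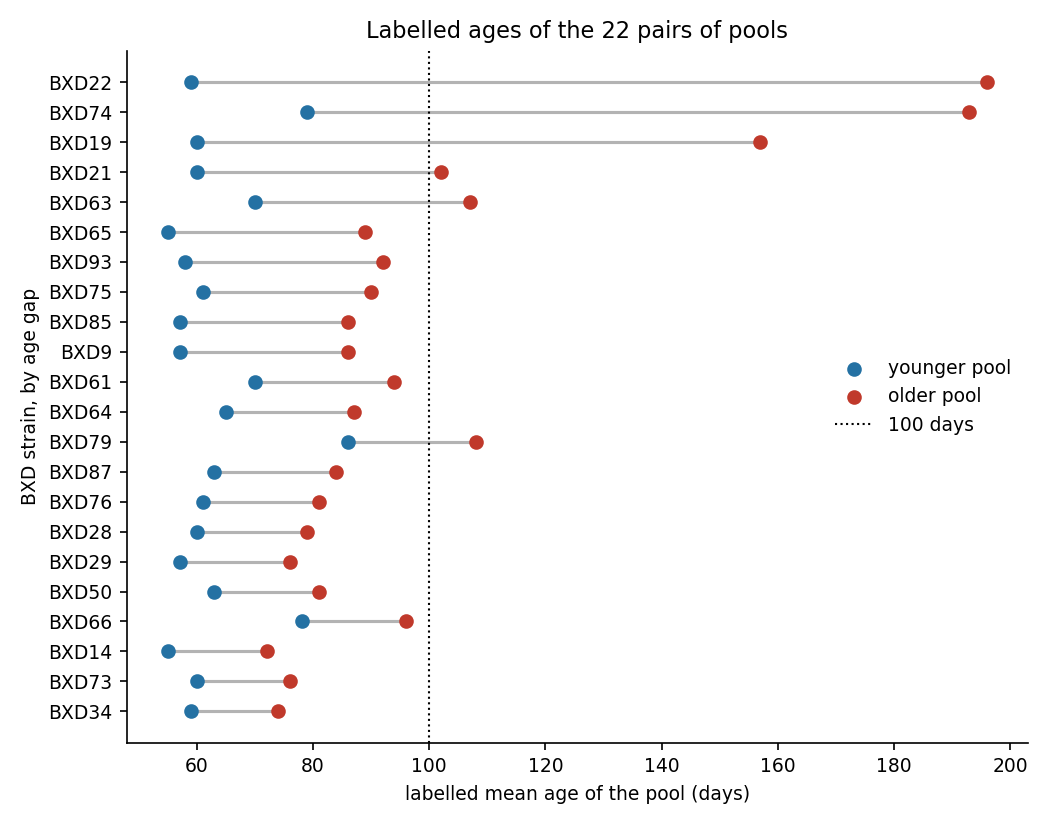
Labelled mean age of the younger pool (blue) and the older pool (red) of each of the 22 BXD strains, in days on the horizontal axis, with strains ordered by their age gap and a dotted line at 100 days. The 3 widest gaps, in BXD22, BXD74 and BXD19, stand well apart from the other 19 pairs.

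In the mouse hippocampus the weeks after puberty are known for a decline of adult neurogenesis in the dentate gyrus, for continued myelination and for the last steps of synaptic maturation. Later life is known for activation of microglia and for higher expression of major histocompatibility complex (MHC) class I, interferon-response and complement genes. Immunoglobulin transcripts are made by B lineage cells, which are rare in healthy brain tissue. The gene lists below cover these processes, together with markers of each cell type that a hippocampal dissection can hold.

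Age was not the only difference between the pools of a strain. In 19 of the 22 strains the pools were of opposite sex, with 11 older male and younger female pairs and 8 older female and younger male pairs. BXD74 and BXD85 had male pools at both ages, and the younger pool of BXD9 was labelled as mixed in sex. In 21 of 22 strains the pools were hybridized in different batches, and only in BXD14 were both in 1 batch, so a within-batch difference rests on that strain alone and has no replicate. Of the 7 batches, batch 7 held 6 younger pools and 1 older pool, and batch 3 held 3 older pools and 0 younger pools. The animals of both pools came from the same labelled source in 15 strains and from different sources in 7. The main test therefore held terms for strain, sex and batch, which were estimated from 133 BXD arrays, and only the 22 strains set the difference between older and younger pools. Counts of strains, values of pools and list medians within a strain are raw, without the sex and batch terms, so they can differ in sign from a fitted difference. Nothing in the labels says whether pools of a strain shared litters, so p-values measure the spread between pools. That spread was taken over all BXD arrays in the fit, mostly from strains outside the 22, and not only between the 22 pairs. The main fit had 57 residual degrees of freedom, against 14 in a fit of only the arrays of the 22 strains.

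Sex labels matched the sex-linked genes in 43 of the 44 arrays, the exception being the mixed pool of BXD9. Xist, the RNA that silences an X chromosome in females, lay at 8.96 to 10.4 PDNN units in the 20 female pools and at 7.49 to 7.86 in the 23 male pools. Eif2s3y, a Y-linked translation factor gene, lay at 7.15 to 7.83 in female pools and at 8.31 to 9.03 in male pools. The mixed pool of BXD9 had 9.45 for Xist and 7.33 for Eif2s3y, within the female ranges of both, and it was coded as mixed in the fit, as labelled. Strain labels were checked with 500 probe sets that repeated best between the arrays of 43 BXD strains outside the 22. Over these probe sets each of the 22 older pools correlated best with the younger pool of its own strain. The correlations ran from 0.593 in BXD21 to 0.951 in BXD28, with a median of 0.884, and the highest with another strain was 0.481. Both BXD14 arrays carried another strain's name in the file header, and the header of the mixed BXD9 pool gave a single sex. The correlations compare pools within the 22 pairs, so they cannot tell which name is right for BXD14.

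The defining markers of hippocampal cell types were present. Wfs1 of pyramidal neurons, C1ql2 of dentate granule neurons, Mbp of myelin and Aqp4 of astrocytes had median values of 9.57, 9.08, 11.7 and 9.84 PDNN units over the 44 arrays. Ttr, the transthyretin gene of choroid plexus, ranged from 8.88 to 12.1 PDNN units. Array quality measures did not differ between older and younger pools beyond their spread. The share of probe sets called present had a median of 50.2% in older and 50.6% in younger pools, and the ACTB 3'/5' signal ratio had medians of 1.29 and 1.27. Among 6 such measures the smallest p was 0.306 (two-sided permutation test over 22 pairs, Benjamini-Hochberg adjusted p = 0.968), for the background signal, which was lower in the older pool of 14 strains.

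The pools of strains with an age gap were not detectably further apart than the pools of other BXD strains. The distance between the 2 arrays of a strain was taken as the SD of their difference over all probe sets. It was 0.142 ± 0.0348 PDNN units (SD, n = 22 strains) where the gap was 15 days or more and 0.145 ± 0.0272 (SD, n = 43 strains) where the gap was smaller. The means differed by -0.00331 units (two-sided permutation test, p = 0.676). Opposite sexes and different batches were the rule in both sets, with 1 of 22 and 2 of 43 pairs hybridized within 1 batch. Within the 22 strains the distance showed no relation to the gap that passed a test. Pearson's r was 0.209 (permutation p = 0.359) and Spearman's rho was 0.233 (permutation p = 0.298), with an adjusted p of 0.359 for both relations, and without the 2 widest gaps r was 0.211. BXD22, with the widest gap, had a distance of 0.186 units, while BXD21, with a gap of 42 days, had the highest at 0.202.

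**Figure D2:**
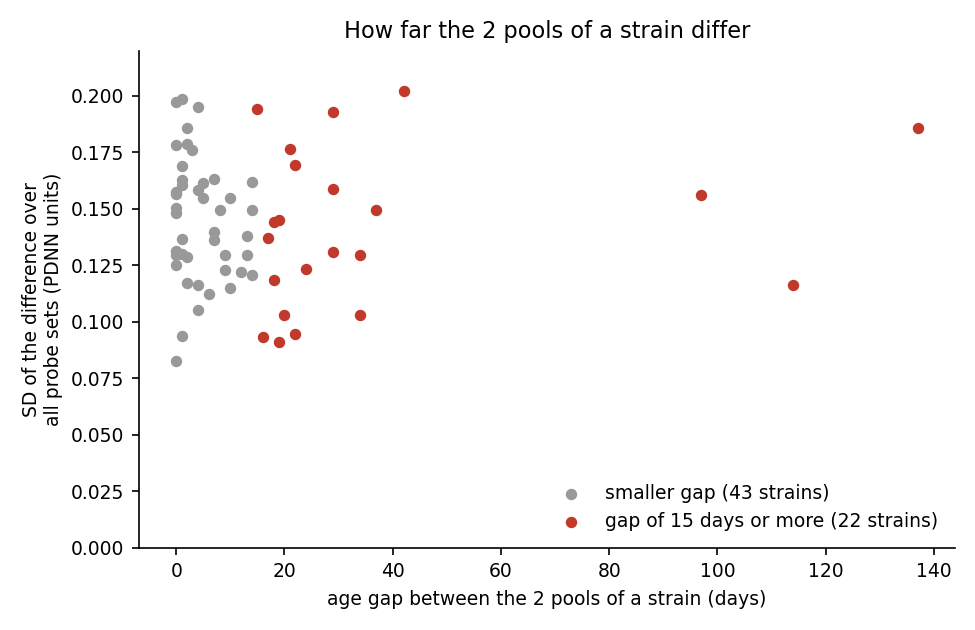
Distance between the 2 pools of each BXD strain, as the SD of the difference over all probe sets in PDNN units, against the age gap in days. Red points are the 22 strains with a gap of 15 days or more, and grey points are 43 strains with a smaller gap. Both sets cover the same heights, with means of 0.142 and 0.145 units.

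No probe set differed between older and younger pools across the 22 strains. Of 45037 probe sets, 0 (0%) passed an adjusted p of 0.05 in limma's moderated test with Benjamini-Hochberg adjustment, and the smallest adjusted p was 0.878. At an unadjusted p under 0.05 there were 2351 probe sets (5.22%), of which 928 (2.06%) were higher and 1423 (3.16%) lower in older pools. The fitted differences were small, with a median size of 0.0165 PDNN units against a median standard error of 0.0234. The median over all probe sets was -0.00384.

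Genes were ranked by unadjusted p among probe sets with 1 symbol and a mean of at least 8, so dimmer probe sets with smaller p were left out. The first 10 among those higher in older pools were Srrm2, Cers4, Ino80, Pkd1, Pisd-ps3, Abca8a, Neat1, Ptprn, Arnt and Phactr2, and none passed the test. Their differences ran from 0.0622 PDNN units for Ino80 to 0.118 for Pisd-ps3. Srrm2, which encodes a splicing scaffold of nuclear speckles, had values of 8.66 to 9.07 with a median of 8.79 in younger pools, and a median of 8.83 with a maximum of 9.21 in older pools. The groups overlapped almost fully, the older pool was higher in 15 of 22 strains, and the fitted difference was 0.102 ± 0.0251 (SE, limma adjusted p = 0.878). Both other Srrm2 probe sets had differences of the opposite sign, -0.0350 and -0.0411. Ptprn, which encodes a membrane protein of dense-core vesicles, had medians of 9.63 in older and 9.54 in younger pools and was higher in the older pool of 18 strains. Abca8a, a lipid transporter gene, and Phactr2, a regulator of phosphatase 1 and actin, were also higher in the older pool of 18 strains, with differences of 0.0900 and 0.117 units. Pkd1 encodes polycystin-1, Cers4 a ceramide synthase, Ino80 a chromatin remodeller and Arnt a partner of the hypoxia and aryl hydrocarbon receptor factors. These 4 were higher in the older pool of 15 or 16 strains. The only other probe set of Ino80 and that of Neat1 had a difference of the opposite sign. The sign was the same at 3 of 4 other probe sets each for Arnt and Pisd-ps3, and at both others for Cers4 and Phactr2.

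In the same ranking, limited to a mean of at least 8, the first 10 genes lower in older pools were Unc93b1, Hsd11b1, Cd99l2, Ccnd2, Kin, Bpifb1, Fcgr3, Tsc22d4, Kif5c and Tspan2, again with none past the test. Their differences ran from -0.0510 for Unc93b1 to -0.110 for Cd99l2. Tspan2, a tetraspanin of oligodendrocytes, was lower in the older pool of 19 of 22 strains, including all 6 with a pool over 100 days. Its values were 8.96 to 9.55 with a median of 9.18 in younger pools and had a median of 9.10 in older pools, and the fitted difference was -0.104 ± 0.0337 (SE, limma adjusted p = 0.937). Hsd11b1, which encodes the enzyme that regenerates active glucocorticoid, was lower in the older pool of 16 strains, including all 6 with a pool over 100 days, with a difference of -0.0869 ± 0.0246 (SE, limma adjusted p = 0.937). Fcgr3, an immunoglobulin Fc receptor of microglia and macrophages, showed the same counts of strains, with a difference of -0.0975. Ccnd2, cyclin D2, was lower in 16 strains at the probe set chosen here. At its brightest probe set the difference was -0.00202 (limma, unadjusted p = 0.954), with the older pool higher in 11 strains and lower in 11. Unc93b1, a chaperone of endosomal Toll-like receptors, and Tsc22d4, a transcriptional regulator, were lower in 15 strains each, but Unc93b1 was at 0.0167 in the MAS5 values and Tsc22d4 at 0.00647 without the strain term. The only other Tsc22d4 probe set had a difference of the opposite sign. The sign was the same at 1 of 3 other probe sets of Kif5c, at 2 of 3 of Cd99l2, and at all others of Ccnd2, Bpifb1 and Tspan2.

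Leaving out the pools over 100 days raised the share of low p-values and brought no probe set past the test. In the 16 strains that remained, 0 of 45037 probe sets (0%) passed, and the smallest adjusted p was 0.0735 (limma). At an unadjusted p under 0.05 there were 7539 probe sets (16.7%), of which 2845 (6.32%) were higher and 4694 (10.4%) lower in older pools. The standard error was larger here than with all 22 strains, with a median of 0.0267 against 0.0234 units, and the median size of the differences was 0.0282 against 0.0165. Without the batch term the share at an unadjusted p under 0.05 fell to 9.14%, without the arrays whose headers disagree with the labels to 8.95%, and without the strain term to 2.67%. In a fit of only the arrays of the 22 strains the share was 10.5%, and with these arrays and no batch term it was 5.45%. Single strains moved the count of calls from 0 to 411 without BXD85, 259 without BXD28 and 29 without BXD61. Both tests share the 16 strains, so their values are not independent.

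The 6 pairs with a pool over 100 days were then set against the 16 others in a test of the difference itself. Here too 0 of 45037 probe sets (0%) passed, with a smallest adjusted p of 0.0700 (limma). There were 8088 probe sets at an unadjusted p under 0.05, of which 4122 (9.15%) were higher and 3966 (8.81%) lower in the 6 pairs. Leaving out BXD19 gave 468 calls and leaving out BXD85 gave 21. Leaving out BXD61 or BXD93 gave 2 calls each, and leaving out BXD63 or BXD87 gave 1 each. Without the batch term the share was 12.2%, and in a fit of only the 44 arrays it was 6.41%. With no sex term it was 17.9%, and with only strains whose pools shared an animal source it was 8.43%. The cause of these shares was not tested.

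**Figure D3:**
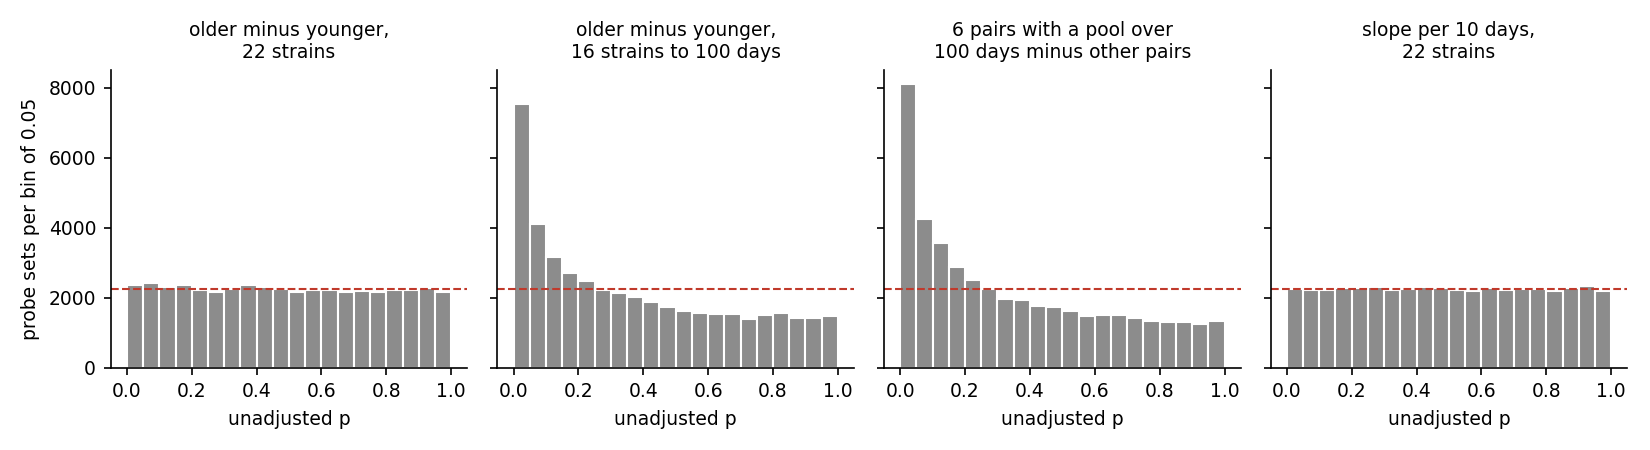
Unadjusted p-values of 45037 probe sets in bins of 0.05 for the 4 tests, with a dashed line at the mean height of the bins. The first and last panels are nearly flat, with 5.22% and 5.01% of probe sets under 0.05, while the panels for the 16 strains to 100 days and for the 6 pairs against the others hold 7539 and 8088 probe sets there.

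Age was also fitted as a slope per 10 days of labelled age within the same 22 strains, which gives the wide gaps more weight. In this form 4 probe sets (0.00888%) passed an adjusted p of 0.05 (limma), and all 4 rose with age. At an unadjusted p under 0.05 there were 2258 probe sets (5.01%), of which 711 (1.58%) had a slope above 0 and 1547 (3.43%) a slope below 0. A pair of the 4 probe sets is annotated with the immunoglobulin kappa constant gene Igkc together with several kappa variable and joining genes. Both share this annotation and carry the suffix x_at, for probe sets that can bind related transcripts, so they are not independent calls. The other called probe sets belong to Neat1, a long noncoding RNA that builds nuclear paraspeckles, and Zc3hav1, an antiviral zinc finger protein that binds viral RNA. The slope and these probe sets were chosen after their values had been seen.

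The highest immunoglobulin kappa values were those of 2 of the 3 oldest pools. At the kappa probe set with the smaller p, the older pool of BXD74, at 193 days, had 9.13 PDNN units against 7.42 in its younger pool. The older pool of BXD22, at 196 days, had 7.89 against 7.33. The older pool of BXD19, at 157 days, had 7.27 against 7.37, so the third of these pools was not high. The 131 BXD arrays other than these 3 older pools reached at most 7.60, with a median of 7.39. The slope was 0.0566 ± 0.00887 units per 10 days (SE, limma adjusted p = 0.00115), and the older pool was higher in 15 of 22 strains. This SE draws on all BXD arrays in the fit, including those of strains outside the 22, and not only on the spread between the 22 pairs. Without BXD74 the slope was 0.0241 with an adjusted p of 0.728, and without both BXD74 and BXD22 it was 0.0108 with an adjusted p of 0.808. In the 16 strains to 100 days the slope was 0.0420, which did not pass the test (limma adjusted p = 0.0824). In a fit of only the arrays of the 22 strains the slope was 0.0616, which did not pass either (limma adjusted p = 0.794).

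A minority of the other immunoglobulin probe sets exceeded the 131 other arrays in the same BXD74 pool. Another probe set with the same kappa annotation had 9.04 against 7.92 in BXD74, and at most 8.23 in the 131 other arrays. Its slope of 0.0320 did not pass the test (limma adjusted p = 0.387). Jchain, which encodes the chain that joins immunoglobulin multimers, had 8.04 in the older BXD74 pool against 7.51 in the younger one, and at most 7.67 in the 131 other arrays. Jchain had 7.62 against 7.40 in BXD22 and 7.45 against 7.55 in BXD19. Ighg3, a heavy chain gene, had 8.27 against 7.96 in BXD74 at one of its probe sets, with at most 8.19 in the 131 other arrays. Igha, the heavy chain gene of mucosal antibodies, had 7.80 against 7.81 at one of its probe sets. Heavy chain transcripts were thus not uniformly higher. Of 52 immunoglobulin and Jchain probe sets, a set chosen after the calls were seen, the older BXD74 pool was above its younger pool in 33 and below it in 18. It exceeded the 131 other arrays in 7, which include both called kappa probe sets, against 0.233% of all probe sets. The older BXD22 pool exceeded the 131 arrays in 2, which are the called kappa probe sets and where BXD74 was higher still, against 0.429% of all probe sets. The older BXD74 pool was made from 2 mice, and whether 1 or both carried the signal cannot be told from a pool. Beside it, the median difference within the BXD74 pair was 0.299 for the 12 choroid plexus genes and -0.0540 for the 3 erythroid genes, and their part in the signal was not tested.

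Neat1 had separate levels in different strains at the probe set that passed. In 8 strains both pools lay between 7.90 and 8.18 PDNN units, in 14 strains both lay between 8.47 and 9.11, and no strain was split between these ranges. The highest value, 9.11, was that of the older BXD22 pool, against 8.70 in its younger pool. In BXD74 the values were 8.18 in the older and 7.94 in the younger pool, and in BXD19 they were 8.90 in both. The slope was 0.0279 ± 0.00550 units per 10 days (SE, limma adjusted p = 0.0420), yet the older pool was higher in only 12 of 22 strains. The call was lost in 12 of 22 fits that left out 1 strain each, among them those without BXD22 and without BXD74. The slope stayed between 0.0245 and 0.0311 in these 22 fits. In the RMA values (limma adjusted p = 0.489), in the MAS5 values, without the batch term and without the sex term the call was lost too. With the older and younger pools of strains with a gap of 20 days or more, Neat1 was the single probe set to pass, with a difference of 0.184 (limma adjusted p = 0.0295). The other Neat1 probe set had a slope of 0.000675 (p = 0.887 in limma, unadjusted).

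Zc3hav1 had small differences in many strains. The older pool was higher in 16 of 22 strains and in all 6 with a pool over 100 days. The values were 7.83 against 7.60 in BXD22, 7.76 against 7.58 in BXD74, and 7.68 against 7.50 in BXD19. Over all pools they ran from 7.50 to 7.75 in younger and from 7.54 to 7.83 in older pools, so the groups overlapped. The slope was 0.0155 ± 0.00305 units per 10 days (SE, limma adjusted p = 0.0420). It stayed between 0.0144 and 0.0162 when any 1 strain was left out, though the call was kept in 10 of these 22 fits. The call was lost in the RMA values (limma adjusted p = 0.133) and in the MAS5 values, and kept without the batch term and without the sex term. The values lie below the array mean of about 8, and the other Zc3hav1 probe sets had slopes of -0.000379 and -0.000570. Without BXD74 the slope fit gave 1 call, a probe set without a symbol that fell with age, and none of the 4 named here passed. Without BXD19 it gave 6 calls. It gave 2 calls, both of them immunoglobulin kappa, without each of BXD22, BXD50, BXD63, BXD64, BXD65, BXD66, BXD75, BXD76 and BXD79.

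**Figure D4:**
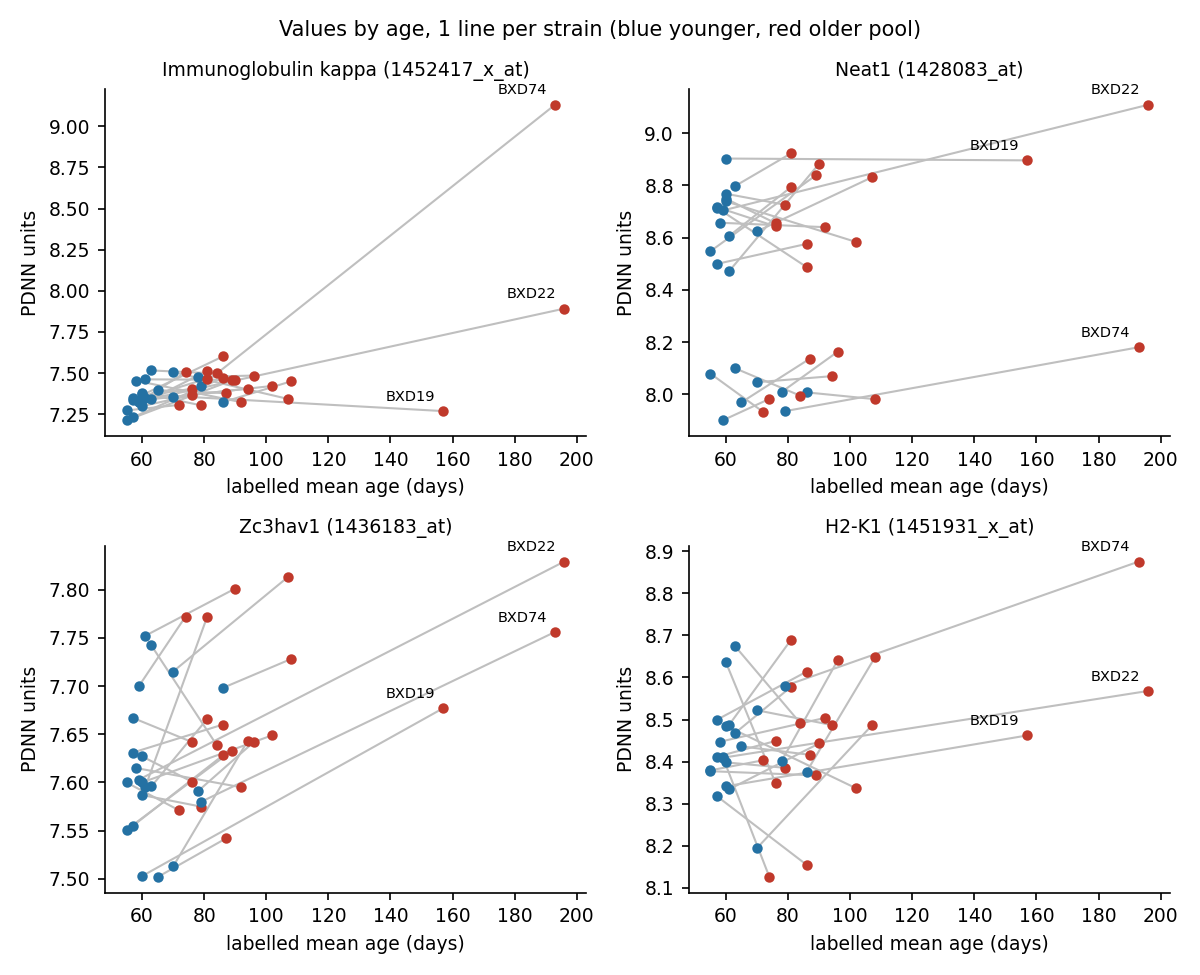
PDNN values against labelled mean age in days for 4 probe sets, with 1 line per strain from its younger (blue) to its older pool (red). In the immunoglobulin kappa panel BXD74 at 9.13 and BXD22 at 7.89 lie above all other pools, whose pairs differ by -0.163 to 0.262, Neat1 shows separate levels of strains, and Zc3hav1 and H2-K1 overlap widely between younger and older pools.

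No member of 25 gene lists passed in any of the 4 tests. The lists named 295 genes, of which 270 were measured by a probe set with 1 symbol, and the others were not analysed here. In the comparison of older with younger pools 10 genes were higher and 13 lower at an unadjusted p under 0.05, which is 3.70% and 4.81% of those measured against 2.06% and 3.16% of all probe sets. The median difference was above 0 in 13 lists and below 0 in 12. Unless another test is named, the counts for lists below are those of the older minus younger comparison.

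The list of MHC class I and interferon-response genes had 9 measured members. In the older minus younger comparison 8 had a difference above 0, and the median was 0.0288 against -0.00384 over all probe sets. In the slope fit all 9 were above 0. H2-K1, H2-D1 and Ifit3 were at an unadjusted p under 0.05 there but did not pass. In that fit 1.58% of all probe sets had a slope above 0 at that p. H2-K1, a class I heavy chain gene, had 8.88 against 8.58 in BXD74, 8.57 against 8.41 in BXD22, and 8.46 against 8.34 in BXD19. Its median over the 22 strains was 8.47 in older and 8.41 in younger pools, and in the 16 strains to 100 days the older pool was higher in 8 and lower in 8. The slope was 0.0228 ± 0.00515 units per 10 days (SE, limma adjusted p = 0.355), and in the RMA table the same probe set passed, with an adjusted p of 0.0286. H2-D1, the second class I heavy chain gene, had a slope of 0.0243 (limma adjusted p = 0.630) and was higher in the older pool of 5 of the 6 strains with a pool over 100 days. B2m, the light chain shared by class I molecules, had a slope of 0.0112, and Ifit3, an interferon-induced antiviral gene, one of 0.0110. The test of the 6 pairs against the others put H2-K1, H2-D1, B2m and Ifit3 at an unadjusted p under 0.05, with differences of 0.167, 0.198, 0.194 and 0.0923. These are 4 of 9 members, where 9.15% of all probe sets were higher at that p in the same test. Probe sets with the suffix x_at, as for H2-K1 and H2-D1, can bind related transcripts, so signal of other class I genes cannot be told apart.

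The promoters of the 3 members at an unadjusted p under 0.05 in the slope fit are shown because interferon-response genes are known for a shared element. The RefSeq promoter sequences (GRCm38.p6, from 250 bases before to 50 bases after the annotated start) were searched on both strands for GAAA followed after any 2 bases by a second GAAA, the core of the interferon-stimulated response element, and matches are in capitals. Each sequence is given 5' to 3' on the gene's strand, for Ifit3 at chr19:34583279-34583578 on the plus strand, for H2-K1 at chr17:34000298-34000597 on the minus strand and for H2-D1 at chr17:35262844-35263143 on the plus strand.
Ifit3: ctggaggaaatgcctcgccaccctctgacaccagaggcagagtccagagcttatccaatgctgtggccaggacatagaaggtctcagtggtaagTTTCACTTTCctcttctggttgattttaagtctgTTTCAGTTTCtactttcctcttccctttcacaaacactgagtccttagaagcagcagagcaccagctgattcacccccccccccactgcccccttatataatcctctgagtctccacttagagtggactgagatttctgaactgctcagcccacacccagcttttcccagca
H2-K1: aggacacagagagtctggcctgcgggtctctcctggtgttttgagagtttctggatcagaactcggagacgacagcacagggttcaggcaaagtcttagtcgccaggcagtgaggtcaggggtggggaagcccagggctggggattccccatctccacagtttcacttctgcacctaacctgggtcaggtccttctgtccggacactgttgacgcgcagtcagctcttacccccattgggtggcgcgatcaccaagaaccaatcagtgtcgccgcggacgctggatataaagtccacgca
H2-D1: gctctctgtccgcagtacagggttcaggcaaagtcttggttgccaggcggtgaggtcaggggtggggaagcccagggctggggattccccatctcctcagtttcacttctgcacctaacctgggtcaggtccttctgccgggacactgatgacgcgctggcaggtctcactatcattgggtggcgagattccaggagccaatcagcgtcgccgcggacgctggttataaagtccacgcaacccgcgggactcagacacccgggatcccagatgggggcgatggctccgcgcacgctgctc
The Ifit3 sequence held 2 exact matches and the others held 0. Looser forms of the element were not searched, so 0 matches does not show that a promoter lacks the element. Among 8 list members with a promoter, counted by gene, 4 held the letters, against 3.44% of 32851 promoters counted singly. The list was chosen to hold interferon-response genes, so a higher share is built in and says nothing about age. A match is a description of these letters, and the arrays did not measure binding.

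Choroid plexus genes had the largest list difference. All 12 measured members had a difference above 0, with a median of 0.173 PDNN units. Kl, Otx2, Clic6 and Aqp1 were at an unadjusted p under 0.05 without passing, where 2.06% of all probe sets were higher at that p. Ttr, the transport protein that this tissue secretes, had a median of 11.9 in older and 11.8 in younger pools, with a lowest value of 10.8 in older and 8.88 in younger pools. Its largest differences were 2.08 in BXD21, 2.67 in BXD28, 2.725 in BXD29 and 1.99 in BXD34. In these pairs the younger pool came from the source labelled Glenn and the older pool from UAB or UMemphis. BXD22 and BXD19, whose younger pools were also from Glenn and older pools from elsewhere, differed by 0.424 and 0.400. The largest difference within 1 source was 0.568, in BXD73. The part of animal source was not tested. Folr1, the folate receptor of its epithelium, ran from 7.50 to 8.95 in older and from 7.40 to 8.73 in younger pools. The mean level of the 12 genes was higher in the older pool of 14 strains, and the change between pools ran from -0.653 in BXD87 to 0.931 in BXD29, a strain with a gap of 19 days. In the slope fit 0 members were at an unadjusted p under 0.05. More cells of a type and more RNA per cell cannot be told apart in pooled tissue, and choroid plexus lies next to the dissected hippocampus.

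Microglial genes had fitted differences below 0, none of which passed the test. All 12 measured members had a difference below 0, with a median of -0.0686. Cx3cr1, C1qb, Tyrobp and P2ry12 were at an unadjusted p under 0.05, where 3.16% of all probe sets were lower at that p. Tyrobp, the signalling adaptor of microglial receptors, had medians of 8.31 in older and 8.46 in younger pools, was lower in the older pool of 15 strains, and differed by -0.100 (limma, unadjusted p = 0.00370). P2ry12, the purinergic receptor of resting microglia, differed by -0.179 and had medians of 8.42 and 8.52. Trem2, a lipid receptor of microglia, differed by -0.0139. The raw median of the list within a strain, not adjusted for sex or batch, was above 0 in 10 strains and below 0 in 12. These raw medians cannot show whether the strains shared the fitted direction.

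Most myelin and oligodendrocyte precursor genes had fitted differences below 0. All 13 measured genes of mature myelin had a difference below 0, with a median of -0.0565. Mog, Mal and Ugt8a were at an unadjusted p under 0.05, where 3.16% of all probe sets were lower at that p. Ugt8a, the enzyme of galactocerebroside synthesis, had medians of 9.04 in older and 9.20 in younger pools and was lower in the older pool of 18 strains, with a difference of -0.121 (limma, unadjusted p = 0.0122). Mbp, the main structural protein of myelin, differed by -0.0214, with medians of 11.7 in both groups. Of 10 precursor genes 9 had a difference below 0, and Gpr17, a receptor of committed precursors, was lower in the older pool of 17 strains. Gpr17 had 8.39 in the median older and 8.46 in the median younger pool, with a slope of -0.0268 units per 10 days (limma adjusted p = 0.497). The list median within a strain was below 0 in 17 of 22 strains both for mature myelin and for precursors.

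Genes of immature neurons, the cells whose number is known to decline over these ages, gave 13 of 15 differences below 0 with a median of -0.0236. The list median within a strain was above 0 in 8 strains and below 0 in 14. The mean level of the 15 genes was higher in the older pool of 11 strains, with medians of 8.985 in older and 8.987 in younger pools. Sox4 and Igfbpl1 were at an unadjusted p under 0.05, where 3.16% of all probe sets were lower at that p. Sox4, a transcription factor of newborn neurons, had 9.11 in the median older and 9.21 in the median younger pool, with a slope of -0.0306 units per 10 days (limma adjusted p = 0.688). Dcx, doublecortin, the usual marker of migrating newborn neurons, had a median of 8.74 in older and 8.60 in younger pools and a fitted difference of -0.0241 (limma, unadjusted p = 0.630), with the older pool higher in 15 of 22 strains. Among 13 genes of proliferation and stem cells 11 were below 0, with a median of -0.0104, and Mki67, a marker of dividing cells, differed by -0.0366. Mcm2 and Mcm6, subunits of 1 replicative helicase, were at an unadjusted p under 0.05 in opposite directions, at 0.0467 and -0.0525.

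In the older minus younger comparison, the lists of dentate granule neurons, pyramidal neurons and interneurons held no member at an unadjusted p under 0.05. The medians were 0.0114 for 11 genes of dentate granule neurons, -0.00773 for 12 genes of pyramidal neurons and 0.0214 for 13 genes of interneurons. The list of glutamate and GABA receptor maturation had a median of 0.00549 over 13 genes and 0 such members. The other tests differed from this, with no gene past the adjusted threshold. To 100 days, 2 dentate, 1 pyramidal and 2 interneuron genes were higher at an unadjusted p under 0.05, and 2 receptor genes were higher and 1 lower, against 6.32% and 10.4% of all probe sets. In the 6 pairs against the others, 4 dentate, 4 pyramidal and 1 interneuron gene were lower, against 8.81% of all probe sets. In that test 5 receptor genes were lower and 1 was higher, with a list median of -0.134. Gabra5, a GABA receptor subunit enriched in hippocampus, differed by -0.208 and Gria2, the AMPA receptor subunit that limits calcium entry, by -0.183. In the slope fit 2 dentate, 2 pyramidal and 3 receptor genes were below 0 at that p, against 3.43% of all probe sets. In the older minus younger comparison the median for 12 astrocyte genes was 0.000413. Of 11 genes of the perineuronal matrix 1, the link protein gene Hapln4, was at an unadjusted p under 0.05. Immediate early, circadian and corticosteroid-response genes had medians of 0.00577, 0.00510 and -0.00947, and those of cholesterol synthesis, the respiratory chain and ribosomal proteins were -0.0178, -0.00590 and -0.0157.

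Among 15 measured genes of a reference list for ageing brain, 6 had a difference above 0 and 9 below 0. Il33, a cytokine of oligodendrocytes and astrocytes, was higher in the older pool of 18 strains, with medians of 8.73 in older and 8.59 in younger pools and a difference of 0.135 (limma, unadjusted p = 0.00203). Col3a1, a fibrillar collagen chain, was lower in the older pool of 15 strains, with medians of 7.79 and 7.90 and a difference of -0.0979 (limma, unadjusted p = 0.00163). Neither passed the test. Gfap, the filament protein of reactive astrocytes, differed by 0.00960, and Apod, apolipoprotein D, by -0.0357. Lists of tissue next to the hippocampus gave medians of 0.00682 for 15 matrix and fibroblast genes, -0.00688 for 10 thalamic genes, 0.0138 for 9 endothelial genes and 0.0593 for 3 erythroid genes.

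**Figure D5:**
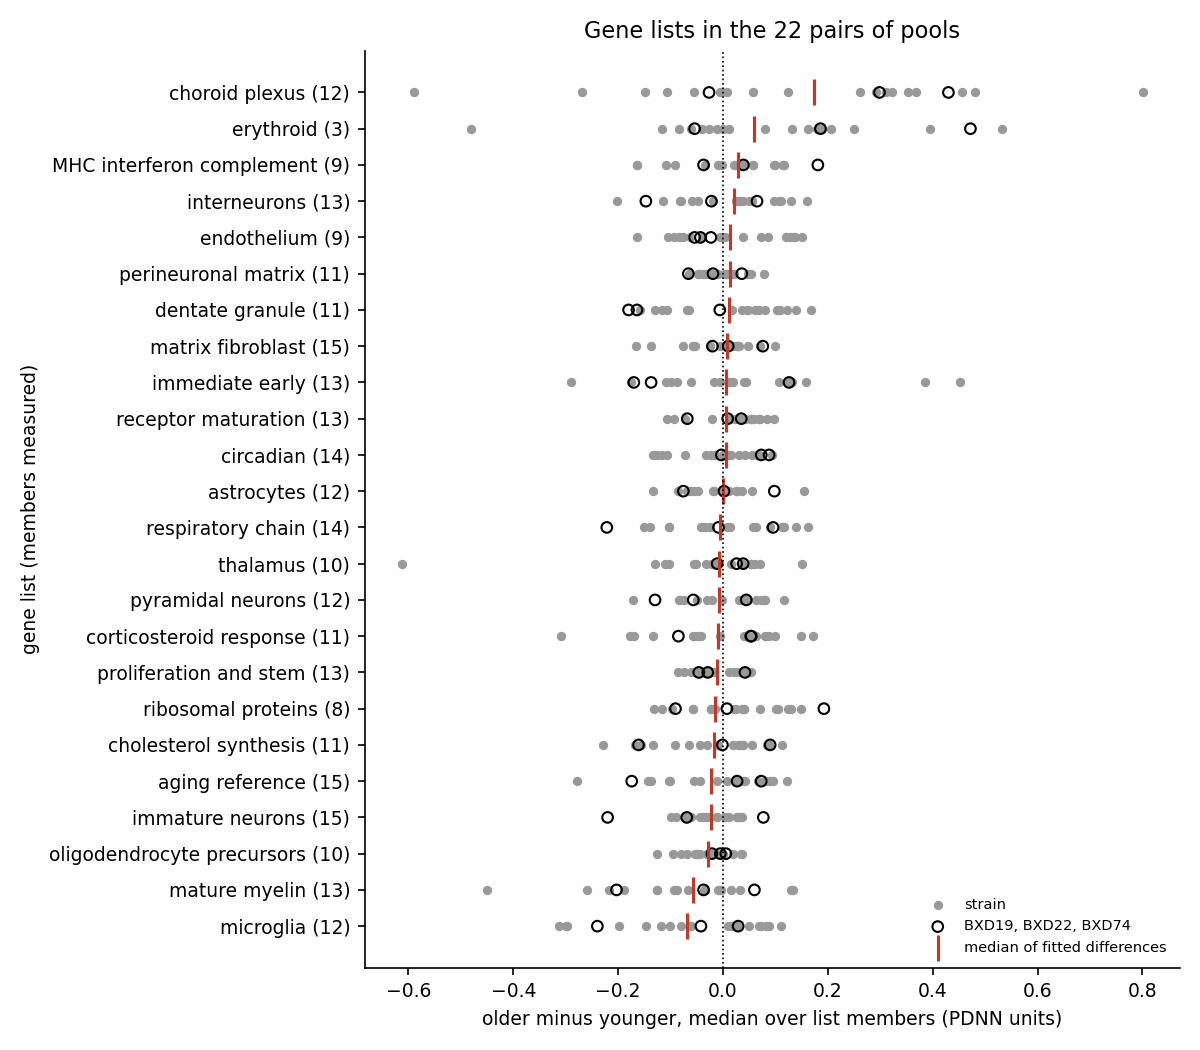
Older minus younger difference of each gene list other than the sex-linked genes, in PDNN units, as the median over the list's measured members in each of the 22 strains (points; open circles are BXD19, BXD22 and BXD74) and as the median of the fitted differences (red bar). The points are raw differences, without the sex and batch terms that the bars hold. All lists straddle 0 across strains, and choroid plexus has the widest spread and the highest bar, at 0.173.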

How the data were processed

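Hippocampal RNA pools were hybridized to M430 2.0 arrays. The deposited PDNN values are a score per probe set on a log-like scale. The series text gives a mean of 8 and an SD of 2, whereas BXD array means lay between 8.06 and 8.10 and their SDs between 0.657 and 0.789. Software versions: not given in the sources used here. The deposited RMA and MAS5 tables, also scores, served as alternatives, and the RMA table as used here held no column for the female BXD14 pool.

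After removal of 64 control probe sets the tests covered 45037, and 34945 of them had 1 gene symbol. limma 3.58.1 in R 4.3.3 fitted 133 BXD arrays with terms for strain, sex (the mixed pool at 0.5), batch and older pool, with Benjamini-Hochberg adjustment and a threshold of 0.05. The fit to 100 days held 127 arrays. Strain is the pairing, since both pools of a strain share its genotype. Over all probe sets the deviations of older and younger pools of 1 strain correlated with a median r of 0.148 (-0.323 to 0.632). Permutation tests drew 100000 resamples and were two-sided. The fits were tested on simulated data.

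Named genes are the 10 with the smallest unadjusted p in each direction among those with 1 symbol and a mean of at least 8, since no probe set was called. List members were read through their brightest probe set. The strains, lists and tests were chosen with earlier results of these data known. Alternatives covered the value table, the model terms, filters, normalization, the age gap and each strain left out in turn.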

Additional observations from a re-analysis of the deposited data

How the results depend on the processing

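The older minus younger comparison gave 0 calls under every alternative run except a gap of 20 days or more (1 call, Neat1) and age as a slope (4 calls), and 0 to 0 when single strains were left out. To 100 days, the RMA table gave 1 call and quantile normalization 28 (17 higher, 11 lower), and leaving out single strains gave 0 to 411. The test of the 6 pairs against the others gave 2 calls with no sex term and 1 with quantile normalization, and 0 to 468 when single strains were left out. Without the strain block (no pairing) these 3 comparisons gave 0 calls each, with 1238, 1201 and 1317 probe sets at an unadjusted p under 0.05, and the slope gave 14 calls. The slope and its alternatives were added after seeing the data. It gave 8 calls in the RMA table, which held both kappa probe sets but not Neat1 or Zc3hav1, and 0 in the MAS5 table. The slope also gave 0 calls once probe sets averaging under 8 were dropped. With only the 44 arrays it gave 2 (Fxyd1 and Cox6b2, and none of the 4 probe sets named in the report), and 0 with these and no batch term. It gave 0 calls without pools over 100 days, 0 without BXD22 and BXD74, 2 with the present share as a covariate, 2 without the arrays with a high RMA outlier share, and 1 to 6 without single strains. The 14 calls without the strain block also held none of the 4. Of 860 fits of the named genes 2 reversed: Tsc22d4 was at 0.00647 without the strain block and Unc93b1 at 0.0167 in the MAS5 table. The cause was not tested. The number of strains, 6 with a pool over 100 days, limits the precision.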
